A study of Homo sapiens with 4 samples.

Results

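The interleukin-1 family genes described here are 9 genes of the 58735 in the count table, taken by symbol: the ligands IL1A, IL1B, IL36G and IL33, the receptor antagonists IL1RN and IL36RN, the receptor IL1R1, its partner chain IL1RAP and the decoy receptor IL1R2. Their RNA was counted in HCC1954, an established human breast cancer cell line with ERBB2 (HER2) amplification, in 4 samples of total RNA. Of these, 2 samples came from cells with a scrambled hairpin (shCON) and 2 from cells with a hairpin against the palmitoyltransferase gene ZDHHC15 (shZDHHC15), and all 4 carried GIPZ hairpin plasmids from Dharmacon. The design text calls the knockdown stable while the treatment notes speak of plasmids transfected transiently and cells taken after 36 h, the study's supplement speaks of screening monoclonal cultures, and nothing states whether the numbers 1 and 2 are separate cultures, clones or hairpins, so p-values measure only the spread between these samples, which may be technical. ZDHHC15 received 17617 and 15716 counts in shCON cells and 0 counts in each shZDHHC15 sample. The comparison asks which family genes differed in level once ZDHHC15 was depleted.

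Interleukin-1 family cytokines bind receptors that carry a Toll/interleukin-1 receptor domain inside the cell. IL1A and IL1B bind IL1R1, which then recruits IL1RAP, and the pair signals through MYD88 and IRAK kinases to NF-kappaB and MAP kinases. IL1RN occupies IL1R1 without recruiting the partner chain, and IL1R2 binds ligand but has no signalling domain. IL36G signals through IL1RL2 and IL1RAP and is opposed by IL36RN, while IL33 signals through IL1RL1 and IL1RAP. IL1B is made as an inactive precursor that caspase-1 cleaves, and IL36G likewise gains activity on cleavage. In epithelia these cytokines are best known for raising neutrophil chemokines and other inflammatory genes.

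Upstream sequences are shown for IL1B, IL36G, IL36RN and IL1R2, the members with the largest changes in their groups, so that the letters before each start can be read beside the values. They come from the RefSeq windows on GRCh38.p14, cover up to 250 bases before the 5′-most RefSeq start and stop where GENCODE 29 places an exon of the gene, except for 1 exon base that completes the last match in IL1R2. The stretches are chr2:112836904-112837029 on the minus strand for IL1B, chr2:112977756-112977885 on the plus strand for IL36G, chr2:113058388-113058637 on the plus strand for IL36RN and chr2:101991710-101991844 on the plus strand for IL1R2. Each is written 5′ to 3′ on the strand of the gene, and capitals mark matches to the motifs searched.
IL1B: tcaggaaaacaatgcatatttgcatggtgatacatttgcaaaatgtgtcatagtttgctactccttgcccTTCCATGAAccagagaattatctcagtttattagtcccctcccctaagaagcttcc
IL36G: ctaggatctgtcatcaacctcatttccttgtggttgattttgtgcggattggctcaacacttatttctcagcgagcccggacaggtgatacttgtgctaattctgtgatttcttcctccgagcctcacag
IL36RN: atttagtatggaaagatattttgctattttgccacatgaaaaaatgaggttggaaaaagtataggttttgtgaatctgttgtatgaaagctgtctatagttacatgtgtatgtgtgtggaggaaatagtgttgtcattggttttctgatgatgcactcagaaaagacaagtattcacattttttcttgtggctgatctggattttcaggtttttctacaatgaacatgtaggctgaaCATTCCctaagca
IL1R2: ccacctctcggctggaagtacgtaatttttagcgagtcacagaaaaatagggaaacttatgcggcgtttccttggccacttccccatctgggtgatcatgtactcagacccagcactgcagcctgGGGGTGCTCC
Searched on both strands were AP-1 (TGANTCA), TEAD (GGAATG), the ISRE core (GAAA, any 2 bases, GAAA), STAT (TTCNNNGAA), the TATA box (TATAAA) and the kappaB consensus. The search used the whole 250-base windows, with positions counted backwards from the RefSeq start. IL1B held 1 STAT match at -180 to -172, IL36RN 1 TEAD match on the minus strand at -13 to -8, and IL1R2 1 kappaB match at -125 to -116 and a TATA match at -30 to -25, beyond the stretch printed. IL36G held no match to any of the 6 motifs. Its RefSeq start lies 4803 bases inside the gene model that was counted, so bases before the start of that model were not searched. Among 35116 windows of the same length, 6.57% held the STAT motif, 11.9% TEAD, 9.96% kappaB, 10.7% TATA, 6.57% AP-1 and 3.02% the ISRE core. A match is a run of letters, not a site shown to be bound.

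The 4 samples held between 17560982 and 19118704 counts on genes. At this depth 3 counts, the limit that a count of 0 allows, are 0.153 to 0.178 CPM (counts scaled to a common library size, here by TMM), a limit that covers counting error only. All 10 markers of breast epithelium and HER2-amplified cells were detected. ERBB2 had 101910 and 100029 counts in shCON and 93750 and 92598 in shZDHHC15 cells, a log2 fold change of -0.24. In edgeR's test 8 of the 10 fell and 1 rose, beside 20.3% lower and 21.7% higher over all genes tested. Log2 fold changes of these markers ran from -1.62 for KRT8 to 0.44 for KRT19, the marker that rose. Keratin KRT8 fell by 1.62 on the log2 scale (SE 0.093, edgeR adjusted p = 4.86e-09). KRT8 shares 525 exon bases with KRT18, and ERBB2 shares 571 with MIEN1 and 194 with PGAP3. Markers of leukocytes, the best known producers of IL1B, summed to 9.71 and 12 CPM in shCON and 5.96 and 7.29 CPM in shZDHHC15 cells, with AIF1, MS4A1, CD3E and TYROBP at 0 in every sample, 7 of 13 at or under 3 counts in every sample and PTPRC, the pan-leukocyte marker, at 1 to 4 counts. CSF1R and CD14 were the 2 leukocyte markers that passed the filter on low counts, and CSF1R fell by 1.06 while CD14, at 5 to 25 counts, rose by 1.61 on the log2 scale. Endothelial markers summed to 57.5 CPM in each shCON sample and to 108 and 101 CPM in shZDHHC15 cells, with PECAM1 higher by 2.91 (75 and 56 against 666 and 405 counts) and CDH5 by 0.65 on the log2 scale, while KDR fell by 0.64. Fibroblast markers summed to 33.1 and 26.1 CPM in shCON and to 41 and 37 CPM in shZDHHC15 cells. FAP, which was not called, made up most of these sums (27.3 and 19 against 29.5 and 28.5 CPM). COL1A1 rose by 0.65 on the log2 scale, and 4 of the 7 fibroblast markers were at or under 3 counts in every sample. The part of all the markers above in the results below was not tested.

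Of the 9 members, 7 passed edgeR's filter on low counts, and among these 5 rose and 1 fell with depletion of ZDHHC15 at an adjusted p under 0.05. IL1B, IL36G, IL36RN, IL1RAP and IL1R1 were the higher genes and IL1R2 the lower one, while IL1RN did not pass the test. Over all 15817 genes tested, 21.7% were higher and 20.3% lower, so changes in either direction were common in these cells. The members tested had a median log2 fold change of 0.81, beside 0.02 over all genes tested. In bulk RNA, a change in the share of cells that make a transcript and a change in RNA per cell cannot be told apart.

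**Figure D1:**
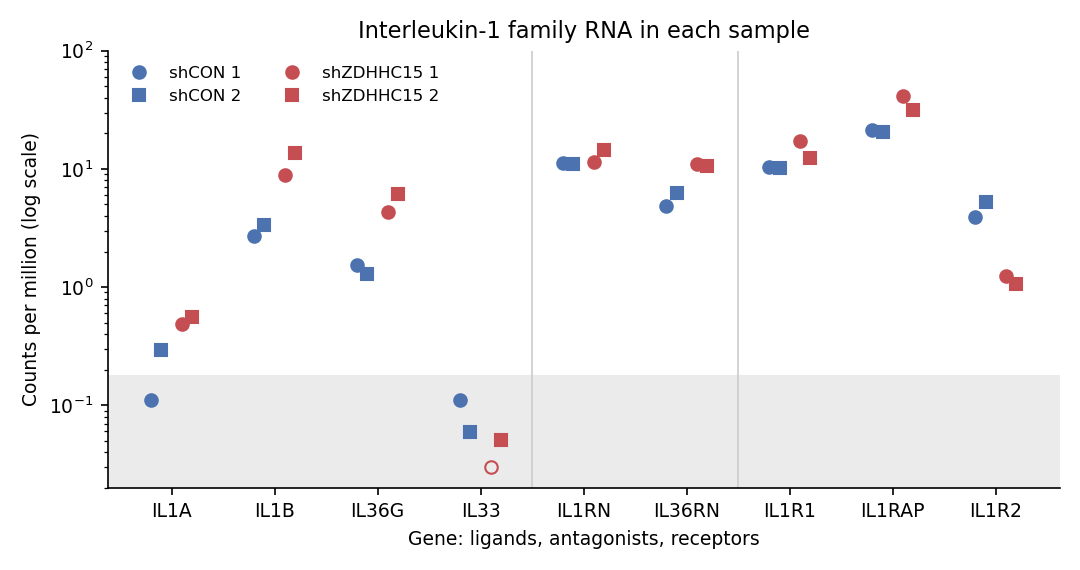
CPM (log scale) of the 9 members in each of the 4 samples, with ligands at the left, antagonists in the middle and receptors at the right. The grey band marks levels at or under 3 counts, the open symbol is a count of 0 drawn at the foot of the plot, IL1B runs from 2.69 to 13.7 CPM, and IL1R2 is the tested member with both shZDHHC15 samples below shCON.

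IL1B, the main secreted ligand of IL1R1, was 3.77-fold higher in shZDHHC15 cells. The gene (ENSG00000125538) lies on chromosome 2 from 112829751 to 112836903 on the minus strand. Its counts were 49 and 56 in the shCON samples and 165 and 268 in the shZDHHC15 samples. Both depleted samples lay above both controls, although they differed from each other by 1.54-fold, a separation of the groups that 37.2% of all tested genes had in the same direction and 35.3% in the opposite one. Mean levels were 3.00 ± 0.447 CPM in shCON and 11.3 ± 3.39 CPM in shZDHHC15 cells (SD, n = 2 samples per group), for a log2 fold change of 1.91 (SE 0.25, edgeR adjusted p = 2.85e-05).

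IL36G, an epithelial ligand of the IL1RL2 receptor, rose by a like amount from a level that was lower in CPM, though not per length of exon. The gene (ENSG00000136688, chromosome 2, 112973203 to 112985665, plus strand) received 28 and 22 counts in shCON and 81 and 120 counts in shZDHHC15 cells. The groups did not overlap, and shZDHHC15 sample 2 was again the higher of the depleted pair. Levels of 1.42 ± 0.164 and 5.23 ± 1.25 CPM (SD, n = 2) gave a 3.67-fold difference, with a log2 fold change of 1.88 (SE 0.297, edgeR adjusted p = 0.000155).

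The other ligands were near the limit of detection. IL1A (ENSG00000115008, chromosome 2, 112773915 to 112784590, minus strand), the ligand that acts without caspase-1 cleavage, received 2 and 5 counts in shCON and 9 and 11 in shZDHHC15 cells. Both depleted samples were above the controls, but the gene did not pass the filter. Its summed counts of 7 and 20 gave a ratio of normalised levels of 2.62 (exact 95% interval 1.06 to 7.34, counting error only), and in the edgeR fit with no filter its log2 fold change of 1.34 had an adjusted p of 0.224. IL33 (ENSG00000137033, chromosome 9, 6215786 to 6257983, plus strand), a nuclear alarmin of barrier cells, received 2, 1, 0 and 1 counts. These are at or under 3 counts in every sample, so no difference was detectable at this depth.

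The antagonists differed from each other. IL36RN (ENSG00000136695, chromosome 2, 113058638 to 113065382, plus strand), which blocks the IL-36 receptor, had 88 and 105 counts in shCON and 203 and 207 counts in shZDHHC15 cells. The depleted samples were almost equal and both above the controls. Its level rose 1.95-fold, from a mean of 5.53 ± 0.988 CPM to one of 10.7 ± 0.252 CPM (SD, n = 2), and the log2 fold change was 0.96 (SE 0.188, edgeR adjusted p = 0.000898).

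IL1RN (ENSG00000136689, chromosome 2, 113107214 to 113134016, plus strand), the antagonist of IL1R1, had 204 and 186 counts in shCON and 213 and 284 counts in shZDHHC15 cells. On the CPM scale these were 11.2 and 11.0 against 11.4 and 14.5, so shZDHHC15 sample 1 lay just above the controls and sample 2 further from them. The means were 11.1 ± 0.115 and 13 ± 2.14 CPM (SD, n = 2). The log2 fold change of 0.22 (SE 0.164) did not pass the test, with an edgeR adjusted p of 0.297. The precision of this estimate does not show that IL1RN stayed level.

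IL1R2, the decoy receptor, was the one tested member that fell, to a level 3.97-fold lower than in controls. The gene (ENSG00000115590, chromosome 2, 101991844 to 102028544, plus strand) had 72 and 89 counts in shCON and 23 and 21 counts in shZDHHC15 cells. Both depleted samples lay well below both controls and close to each other. Levels were 4.61 ± 0.938 and 1.15 ± 0.117 CPM (SD, n = 2), and the log2 fold change was -1.99 (SE 0.306, edgeR adjusted p = 0.00012).

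IL1RAP, the chain shared by the receptors for IL-1, IL-36 and IL-33, was the most counted member. The gene (ENSG00000196083, chromosome 3, 190514051 to 190659750, plus strand) had 387 and 349 counts in shCON and 778 and 625 counts in shZDHHC15 cells, without overlap and with sample 1 the higher of the depleted pair. It rose 1.75-fold, from 21.0 ± 0.38 to 36.8 ± 7.03 CPM (SD, n = 2), with a log2 fold change of 0.81 (SE 0.141, edgeR adjusted p = 0.000339). Its exons share 535 bases with AC108747.1 on the same strand, which had 0 counts in every sample.

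IL1R1, the ligand-binding and signalling chain, rose least of the members called. The gene (ENSG00000115594, chromosome 2, 102064544 to 102179874, plus strand) had 190 and 172 counts in shCON and 320 and 241 counts in shZDHHC15 cells, again with sample 1 the higher. The groups did not overlap, but the depleted pair was far more spread than the controls, at 14.7 ± 3.47 against 10.3 ± 0.159 CPM (SD, n = 2). The log2 fold change was 0.51 (SE 0.177, edgeR adjusted p = 0.0309). The call was lost without shZDHHC15 sample 1 (log2 fold change 0.25, adjusted p = 0.416). It was also lost when low counts were not filtered (0.49, edgeR adjusted p = 0.149), a fit in which 7.56% of all genes were higher, and in the DESeq2 Wald test (0.50, adjusted p = 0.117), in which 14.9% were. Its exons share 11 bases with the antisense gene IL1R1-AS1, which had 0 counts in every sample.

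Per length of exon, IL1RN had the highest mean of the members in both groups. Levels in RPKM (CPM per kilobase of exon) were, in shCON cells, 3.41 ± 0.0354 for IL1RN, 1.81 ± 0.0329 for IL1RAP, 1.68 ± 0.3 for IL36RN, 1.50 ± 0.305 for IL1R2, 1.46 ± 0.0225 for IL1R1, 1.03 ± 0.119 for IL36G and 0.97 ± 0.144 for IL1B (SD, n = 2). IL1RN stood clear of the rest, the samples of IL1RAP, IL36RN, IL1R2 and IL1R1 overlapped from each to the next, and those of IL36G and IL1B overlapped with each other. In shZDHHC15 cells the RPKM order was IL1RN (3.98 ± 0.658), IL36G (3.79 ± 0.903), IL1B (3.64 ± 1.09), IL36RN (3.25 ± 0.0765) and IL1RAP (3.19 ± 0.608), each overlapping its neighbour, then IL1R1 (2.08 ± 0.49) and, last of the tested members, IL1R2 (0.375 ± 0.0381). IL1B and IL36G, which 26.3% and 27.2% of tested genes lay below in shCON cells, overlapped IL1RN in shZDHHC15 cells, where 48.8% and 49.6% of tested genes lay below them. IL1R2 moved the other way, from 33.6% to 11.2% of tested genes below it. IL1A was at 0.0956 and 0.246 RPKM and IL33 at 0.026 and 0.00783 RPKM in the respective groups.

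**Figure D2:**
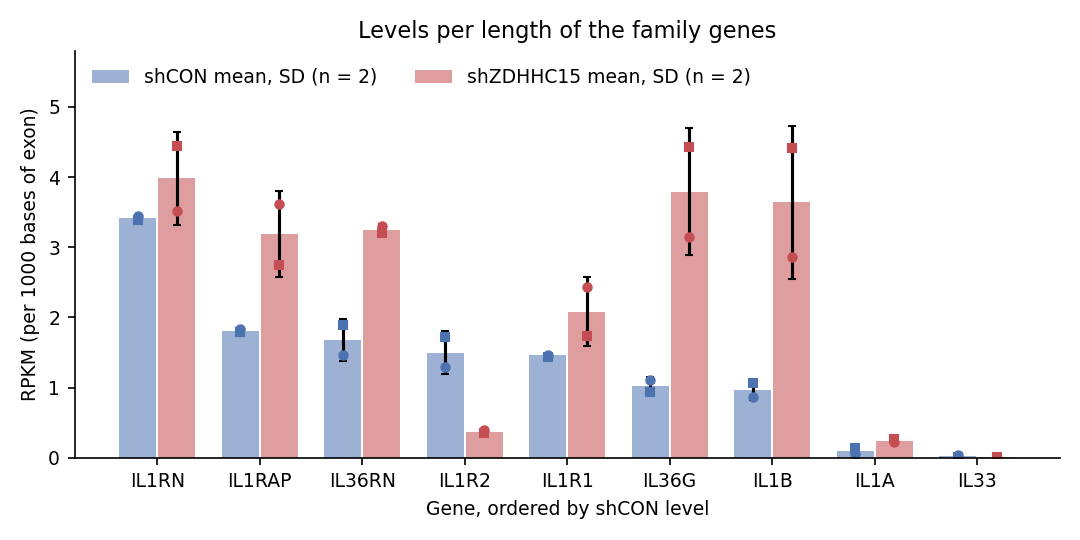
RPKM of the 9 members, ordered by their shCON level, with bars for group means, error bars for the SD (n = 2) and points for samples (circles for number 1, squares for number 2). IL1B and IL36G reach the level of IL1RN in shZDHHC15 cells, at 3.64 and 3.79 against 3.98 RPKM, and IL1R2 drops to 0.375 RPKM.

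Ratios within a sample set ligands beside their antagonists and receptors beside each other, and do not depend on library scaling. The 6 ratios were chosen after the values had been seen. IL1B to IL1RN, in RPKM, was 0.253 and 0.317 in shCON and 0.815 and 0.992 in shZDHHC15 cells, so that the ligand's RNA went from well under that of the antagonist to near it. IL36G to IL36RN was 0.761 and 0.501 against 0.954 and 1.39. Both ratios were higher in each depleted sample, with a smaller change for the IL-36 pair, whose antagonist also rose.

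IL1R1 to IL1R2, the signalling receptor beside the decoy, was 1.14 and 0.838 in shCON and 6.04 and 4.98 in shZDHHC15 cells, and IL1RAP to IL1R2 was 1.43 and 1.04 against 8.99 and 7.91. These receptor ratios had the largest shifts of the 6, at 2.48 and 2.79 on the log2 scale. IL1RAP to IL1R1 moved less (0.30 on the log2 scale), from 1.25 and 1.24 to 1.49 and 1.59, and IL1B to IL36G overlapped between groups (0.78 and 1.13 against 0.908 and 0.995). With 2 samples against 2, an exact permutation test cannot give a two-sided p below 0.333, which is what the 5 ratios that did not overlap gave (0.4 after Benjamini-Hochberg adjustment over the 6 ratios).

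Most members lie in 2 gene clusters on chromosome 2. The ligand cluster spans 360102 bases from IL1A to IL1RN and holds 9 protein-coding genes, all of the family. Of these, IL1B, IL36G and IL36RN rose, IL1RN did not pass the test, and IL1A, IL37, IL36A, IL36B and IL1F10 did not pass the filter, with at most 5 counts in any sample for the last 4. The neighbouring genes outside it, named after their values were seen, were CKAP2L (log2 fold change -0.12, SE 0.134, edgeR adjusted p = 0.514) and PSD4 (0.23, SE 0.128, adjusted p = 0.164), neither past the test. IL37, with at most 1 count in a sample, lies between IL1B and IL36G.

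The receptor cluster, 460722 bases from IL1R2 to IL18RAP, held changes in both directions. IL1R2 fell and IL1R1, the next gene, rose, the only rise in the cluster and a call kept in 9 of 12 alternatives. IL1RL1, the receptor for IL33, had 449 and 328 counts in shCON and 47 and 75 in shZDHHC15 cells, a fall of 2.79 on the log2 scale (SE 0.208, edgeR adjusted p = 9.06e-08), although 95 of its exon bases are shared with IL18R1. IL18R1, a chain of the IL-18 receptor, had 48, 25, 23 and 32 counts and did not pass the test (-0.53, adjusted p = 0.264). IL1RL2, the IL-36 receptor, had 1 count in 1 shCON sample and 0 in the others, and IL18RAP had 0 in all, so RNA for the receptor that IL36G and IL36RN bind was not detectable above the floor of 3 counts. The flanking genes MAP4K4 (0.03, SE 0.0944, adjusted p = 0.834) and SLC9A2 (-1.33, SE 0.537, adjusted p = 0.0595), named after their values were seen, did not pass the test.

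Among 13 other family ligands, receptors and binding proteins, 7 passed the filter, with a median log2 fold change of -0.53. In edgeR's test 0 rose and 2 fell (28.6% of those tested), beside 21.7% higher and 20.3% lower over all genes tested. The falls were IL1RL1 and IL18. IL18, a ligand that caspase-1 also cleaves, had 609 and 539 counts in shCON and 404 and 451 in shZDHHC15 cells, a fall of 0.55 on the log2 scale (SE 0.12, edgeR adjusted p = 0.00204), opposite to IL1B. SIGIRR, an inhibitory receptor (-0.06, adjusted p = 0.802), and IL18BP, a soluble trap for IL-18 (0.42, adjusted p = 0.0631), did not pass the test, although IL18BP did with library size only (0.49, edgeR adjusted p = 0.0351). IL18BP shares 675 exon bases with NUMA1, and the counting is not stated to use strand, so reads from such pairs cannot be told apart.

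Genes that cleave or release the family ligands changed in both directions. Of 22, 16 passed the filter, with a median log2 fold change of -0.14. In edgeR's test 5 rose (31.2% of those tested) and 7 fell (43.8%), beside 21.7% and 20.3% over all genes tested. CASP1, the protease that cleaves the IL1B precursor, had 23 and 40 counts in shCON and 261 and 198 in shZDHHC15 cells, a log2 fold change of 2.74 (SE 0.276, edgeR adjusted p = 2.27e-06). CTSS, a cysteine protease that can cleave IL36G, had levels of 46.6 ± 1.88 and 241 ± 43.3 CPM (SD, n = 2), and its log2 fold change was 2.37 (SE 0.123, adjusted p = 1.49e-09). RNA of both proteases thus rose, as did RNA of IL1B and IL36G, while RNA of IL18, which caspase-1 also cleaves, fell. A link between these changes was not tested.

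Sensors that activate caspase-1 did not move together. AIM2, which binds cytosolic DNA (20 and 20 counts in shCON, 110 and 102 in shZDHHC15 cells), and MEFV, the pyrin sensor (12 and 17, 62 and 54), rose by 2.28 and 1.87 on the log2 scale. NLRP3, with 226 and 227 counts in shCON and 19 and 9 in shZDHHC15 cells, fell by 4.13 (SE 0.283, edgeR adjusted p = 3.84e-08), and NLRP1 fell by 1.16. The initiator caspase CASP8 rose by 0.84, and the calpain subunits CAPNS1 and CAPN2, of the proteases that cleave the IL1A precursor, fell by 0.64 and 0.33, as did the IL1A-binding protein HAX1 by 0.42. PYCARD, the adaptor that joins sensors to caspase-1, named after its values were seen, had 0 and 2 counts in shCON and 0 and 1 in shZDHHC15 cells. Without shZDHHC15 sample 1 the number of lower genes in this list was 2 and not 7, in a fit where 13.3% of all tested genes were lower. NLRP1 (-0.81, edgeR adjusted p = 0.054), CAPN2 (-0.27, adjusted p = 0.153) and HAX1 (-0.36, adjusted p = 0.0545) were among the calls lost.

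The signalling chain behind IL1R1 and IL1RAP had 19 of 20 genes tested (median log2 fold change 0.22). In edgeR's test 7 rose (36.8% of those tested) and 2 fell (10.5%), beside 21.7% and 20.3% over all genes tested. IRAK2, a kinase that sustains the signal, had 469 and 444 counts in shCON and 930 and 1134 in shZDHHC15 cells, a log2 fold change of 1.05 (SE 0.118, adjusted p = 6.80e-06). The adaptor MYD88 rose by 0.62 (SE 0.095, adjusted p = 0.000122), the ubiquitin ligases PELI1 and PELI2 by 0.66 and 1.00, and the kinase MAP3K8 by 0.76. IRAK1, the more abundant kinase per length (167 against 7.47 RPKM for IRAK2 in shCON cells), fell by 0.49 (SE 0.0918, adjusted p = 0.000648), and the ubiquitin-conjugating enzyme UBE2N, which shares 2474 exon bases with NUDT4, fell by 0.30. IRAK4 (0.28, adjusted p = 0.0826) did not pass the test, but did with library size only (0.36, adjusted p = 0.0427), with the replicate block (0.29, adjusted p = 0.0267) and without shCON sample 1 (0.40, adjusted p = 0.00944). IRAK3, an inhibitory family member, had 1, 0, 4 and 1 counts. UBE2N lost its call without shZDHHC15 sample 1 (-0.28), without shZDHHC15 sample 2 (-0.34) and with library size only (-0.23, edgeR adjusted p = 0.0657). With library size only, 1 gene of this list was lower, in a fit where 16.1% of all genes tested were lower.

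Genes known to respond to interleukin-1 were also called in both directions, with a share of falls close to that of all genes. Of 35, 32 passed the filter, with a median log2 fold change of 0.27. In edgeR's test 14 rose (43.8% of those tested) and 6 fell (18.8%), beside 21.7% and 20.3% over all genes tested. PTGS2, the inducible cyclooxygenase, had 596 and 493 counts in shCON and 3385 and 3340 in shZDHHC15 cells, a log2 fold change of 2.51 (SE 0.107, adjusted p = 1.97e-10). Mitochondrial SOD2 rose by 2.09, the chemokines CCL20 and CCL2 by 1.72 and 1.30, and the siderophore-binding LCN2 by 0.83. SOD2 has 2 identifiers in the table, of which the one with more counts was taken, and its exons overlap those of WTAP.

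The falls included the most counted chemokine of the list. CXCL8, a neutrophil attractant, had 45131 and 40671 counts in shCON and 27614 and 38243 in shZDHHC15 cells, a fall of 0.51 (SE 0.11, edgeR adjusted p = 0.00178). The other CXCL chemokines of the list, named after their values were seen, were mixed. CXCL5 rose by 1.96 on the log2 scale (23 and 24 against 85 and 115 counts), and CXCL2 fell by 0.37. CXCL3 (0.07) and CXCL6 (0.51) did not pass the test, and CXCL1 did not pass the filter. TNFAIP3, an inhibitor of NF-kappaB that shares 95 exon bases with AL357060.1, had 11420 and 9939 counts against 4218 and 6037, a fall of 1.19 (SE 0.119, adjusted p = 2.23e-06). TRAF1, a signalling adaptor, fell by 0.92, the cytokine LIF, overlapped by antisense genes, by 0.60 and the NF-kappaB subunit RELB by 0.30. Without shZDHHC15 sample 1 CXCL8 was no longer called (-0.33, edgeR adjusted p = 0.0725), nor was RELB (-0.22, adjusted p = 0.301), which also lost its call with library size only (adjusted p = 0.0868) and with no filter (adjusted p = 0.0747). The number of lower genes in this list was 3 without that sample, a fit in which 13.3% of all tested genes were lower against 20.3% with all samples.

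The patterns most like those of the 3 most counted members were sought over the 4 samples among 12950 protein-coding genes tested, by the distance between log2 CPM values (0.05 CPM added) centred on each gene's mean. AFF1 (0.0284), YPEL2 (0.0384) and CDON (0.052) lay nearest to IL1RAP. DNAL1 (0.0656), RBKS (0.0686) and RIMS2 (0.0693) lay nearest to IL1R1. FBXO4 (0.0368), TOR2A (0.0402) and CCDC66 (0.0484) lay nearest to IL1RN. With 4 samples many genes share such a profile, and the distances are a description only.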

How the data were processed

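RNA of 4 HCC1954 samples was sequenced from NEBNext Ultra libraries. The authors deposited 1 table of raw read counts per gene, not normalized. The submitters' processing notes name HISAT2, StringTie, SAMtools and hg38, without roles, and the counting tool and its use of strand are not given in the sources used here. All 58735 identifiers matched GENCODE 29 in start, end and exon length.

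Samples were grouped by their labels. Counts were filtered with filterByExpr, scaled by TMM factors (0.962 to 1.03) and fitted by glmQLFit and glmQLFTest in edgeR 4.0.16 under R 4.3.3 with limma 3.58.1, with Benjamini-Hochberg adjustment over 15817 genes. CPM and RPKM use the TMM library sizes and, for RPKM, the exon lengths in the table. Samples of one group differed by more than counting noise (chi-square per degree of freedom 8.32 for shCON and 6.79 for shZDHHC15, each pair of counts totalling 20 or more) and were kept apart. The tests were checked on simulated counts.

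The members, lists and markers were chosen with earlier results of these data known, and 1 leukocyte marker of the list is not reported here. All members are named. From each list, up to 5 rises and 5 falls with the smallest adjusted p are named where the higher group averaged 50 counts or more, and some genes are named by role. Lists are described by counts and medians, with no set test. Alternatives were other scalings, DESeq2 1.42.0, other filters, the legacy quasi-dispersion, a replicate block and leaving out each sample.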

Additional observations from a re-analysis of the deposited data

How the results depend on the processing

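IL1B, IL36G, IL36RN, IL1R2, IL1RAP and IL1RN each kept their direction and their side of the threshold in 12 of 12 alternatives, and IL1R1 in 9 of 12. Their log2 fold changes ranged from 1.56 to 2.19 for IL1B, 1.6 to 2.1 for IL36G, 0.75 to 1.14 for IL36RN, -2.22 to -1.78 for IL1R2, 0.6 to 0.99 for IL1RAP and 0.04 to 0.38 for IL1RN, with both ends set by leaving out a sample. IL1R1 was no longer called at 0.50 in the DESeq2 Wald test and 0.49 with no filter, and ranged from 0.25 to 0.73 without 1 sample. The cause was not tested.

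With library size only, 1 of the other family genes was higher (0 with TMM factors), beside 24.8% of all genes tested (21.7% with TMM factors). In that fit 1 signalling gene was lower, beside 16.1% of all genes tested. The number of lower signalling genes was 2 with TMM factors (20.3% of all genes) and 4 with upper-quartile factors (21.9%). Over the whole table, library size only gave 3926 genes higher and 2546 lower, with the median of all genes at 0.090. The share of higher genes among these calls was 60.7%, against 51.6% with TMM factors. With no filter, 2282 genes were higher against 3427. Without 1 sample, the number of lower genes ranged from 2 to 7 for processing and release, 1 to 3 for receptor signalling and 3 to 8 for the interleukin-1 response, while the share of lower genes over the whole table ranged from 13.3% to 20.9%. SIGIRR, at -0.06, changed sign to 0.01 with library size only and was between -0.28 and 0.14 without 1 sample (0.14 without shCON replicate 2, 0.02 without shZDHHC15 replicate 2), never past the threshold.

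The replicate numbers were not shown to pair the samples (correlation of same-numbered deviations 0.0344, 2 pairs). With the replicate block, 3723 genes were higher and 3502 lower, IL1B was at 1.89, and no call of a member changed. Fits that leave out a sample put 1 sample in a group, which is assumed to vary like the other group. Depth limits IL1A and IL33, which had at most 11 and 2 counts.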

Other observations

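The samples of the shZDHHC15 pair differed from each other at several members. The ratio of CPM in shZDHHC15 sample 2 to sample 1 was 1.54 for IL1B, 1.41 for IL36G, 1.26 for IL1RN and 0.967 for IL36RN, and 0.714 for IL1R1, 0.762 for IL1RAP and 0.866 for IL1R2. In the shCON pair the same ratio was 1.24, 0.849, 0.985 and 1.29 for those ligands and antagonists and 0.978, 0.975 and 1.34 for those receptors. These differences between samples of one group have no replicate check.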
